A study of Mus musculus with 22 samples.

Results

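The genes described here are the integrins and the cytoplasmic proteins that bind their tails. They were chosen by symbol and comprise every integrin alpha chain (18 genes), every integrin beta chain (8 genes) and 9 adaptors, namely the kindlins, the talins, integrin-linked kinase and the parvins. All 35 symbols were found among the 41388 annotated genes in the files. They were measured by RNA-seq in stromal cells that had been sorted from mouse tumors by the reporter TdTomato (TdT) and the leukocyte antigen CD45, 2 weeks after tumor cells were inoculated. The 22 libraries come from 4 populations and 2 genotypes. The populations are TdTOSX+;CD45-, TdTOSX+;CD45+, TdTOSX-;CD45+ and TdTOSX-;CD45-. Each genotype has 2 libraries of TdTOSX+;CD45- cells and 3 of each of the other populations.

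All mice were C57BL/6, 56 days old, and carried Osx-cre and the Ai9 reporter, so that a cell in which the Osterix (Sp7) promoter had once driven Cre stays red, whatever it expresses later. The transgene is a tetracycline-repressible one, and the labels do not give the diet of these mice. The libraries labelled wild type come from 4 inoculated Osx-cre;Ai9 mice, and those labelled Cdh2-cKO from 6 inoculated mice that also carried the conditional deletion of the cadherin gene Cdh2 in Cre-expressing cells. Samples were picked by RNA quality, and nothing in the labels ties a library to 1 mouse. P-values therefore measure the spread between these samples. The labels place the tumor, a GFP-marked mammary carcinoma line, in the mammary gland, whereas the series and its methods place it under the skin. GFP+ tumor cells had been gated out.

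Integrins are heterodimers of an alpha and a beta chain that span the membrane. Outside the cell they bind matrix proteins such as collagens, laminins and fibronectin, or counter-receptors such as ICAM1 on other cells. Inside the cell the beta tail binds talin and kindlin, which switch the receptor on, and the complex of integrin-linked kinase, PINCH and a parvin, which ties it to actin. The beta2 chain pairs with alphaL, alphaM, alphaX or alphaD and is made by leukocytes, while the beta1 chain has partners in nearly every cell type. The beta2 integrins are best known for leukocyte arrest and phagocytosis, and beta1 integrins for the anchorage of fibroblasts and muscle cells to matrix.

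Between 16594228 and 26784003 reads were counted on genes per library, with a median of 18977040. Levels are CPM, read counts relative to library size after TMM scaling, and 3 reads in a library correspond to 0.1 to 0.201 CPM. A gene was tested where it had more than 1 CPM in at least 2 libraries, which 33 of the 35 genes did. The other 2, Itgad (alphaD) and Itgb6 (beta6), had 46 and 31 reads over all libraries and at most 11 and 5 in a library. On the first principal component of all genes tested, CD45+ libraries lay between 80.2 and 123.5 and CD45- libraries between -187.9 and -19.6. The CD45- library nearest to the CD45+ ones was TdTOSX-;CD45- wild type replicate 3, and the next CD45- library lay at -77.3. On the second component TdTOSX-;CD45+ wild type replicate 2 stood apart from all others. It carried the marker sums of B cells (3232 CPM) and T cells (2011 CPM), which reached at most 21.5 and 426 CPM in any other library. Both libraries are kept below, and values without them are given where they change a result.

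The first comparison set the 12 libraries of the CD45+ populations against the 10 of the CD45- populations. The beta2 chain, its 3 tested alpha partners, Fermt3 and Parvg were higher in CD45+ cells, and the 4 collagen-binding alpha chains, Fermt2, Parva and Tln2 were lower. By edgeR's quasi-likelihood test, with a threshold of 0.05 on the p adjusted over all genes, 11 of the 33 integrin genes were higher in CD45+ cells, 19 lower and 3 not called. Of all 15020 genes tested, 31.2% were higher and 32.1% lower, so that 63.3% were called either way and the share of integrin genes called higher was near that of all genes. The median log2 fold change of the integrin genes was -1.06 against 0.03 for all genes, and the median absolute change 3.20 against 0.67. In 6 integrin genes every CD45+ library lay above every CD45- library (Itga4, Itgal, Itgax, Itgb2, Fermt3 and Parvg), as in 3.27% of all genes. In 8 every CD45+ library lay below (Itga1, Itga2b, Itga7, Itga10, Itga11, Fermt2, Tln2 and Parva), as in 11.3% of all genes. Sorted cells were sequenced in bulk, so fewer cells of a type and less RNA per cell cannot be told apart.

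**Figure D1:**
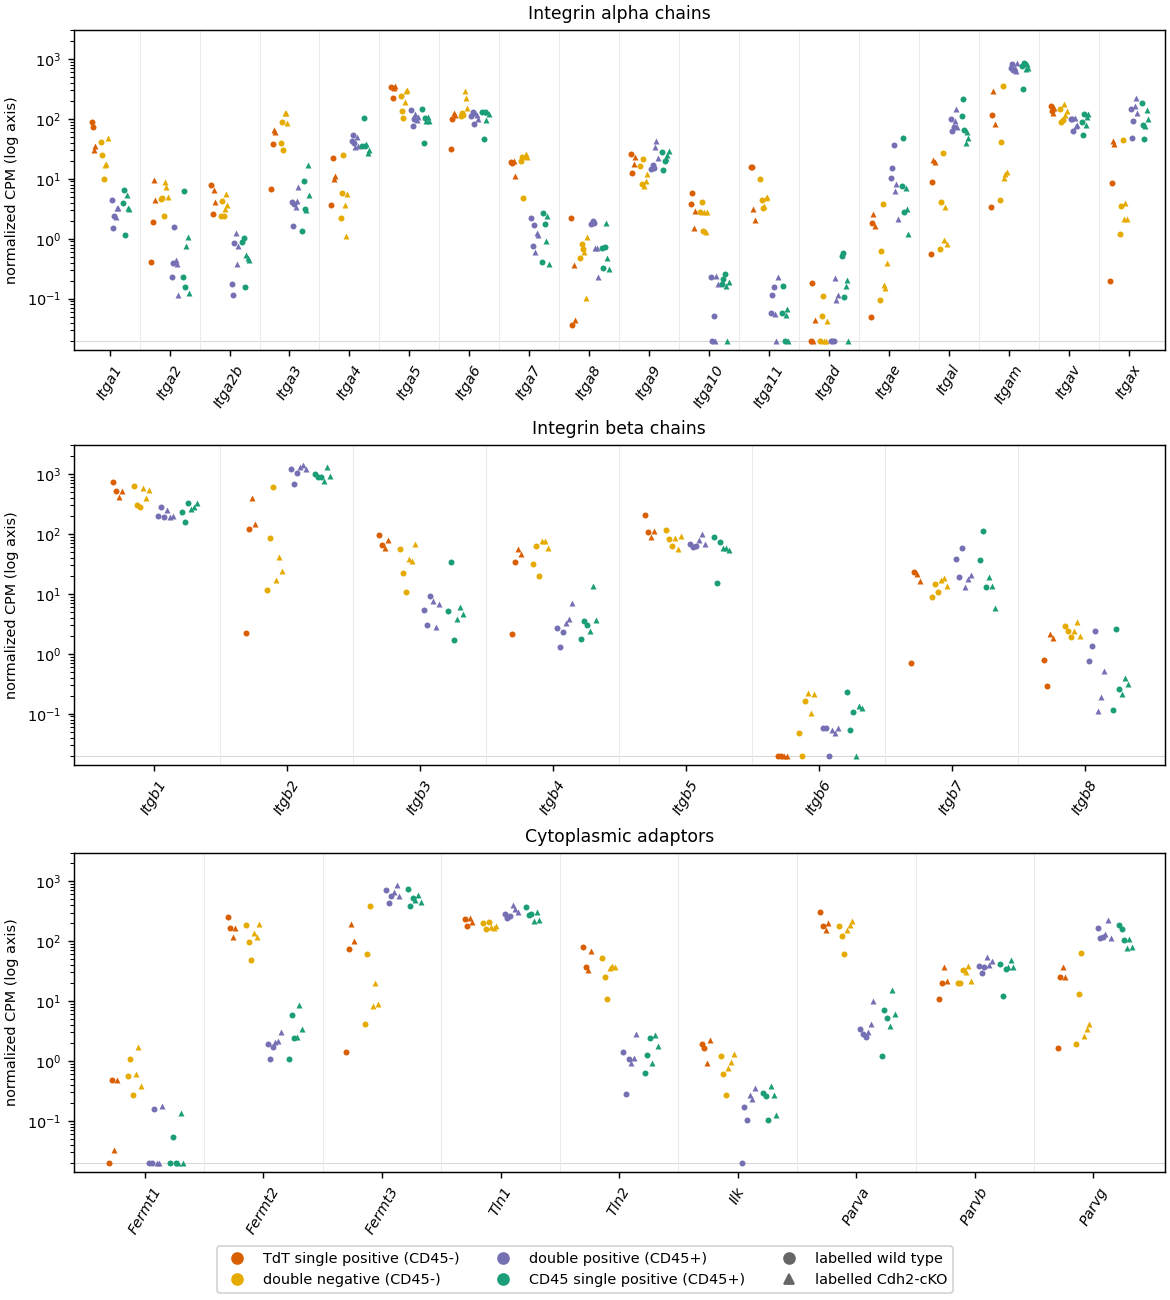
Normalized CPM (log axis) of the 35 integrin and adaptor genes in each of the 22 libraries. Each point is 1 library, colors mark the population, circles are labelled wild type and triangles Cdh2-cKO, and libraries with no read lie on the grey line. Itgb2, Itgam, Fermt3 and Parvg are high in both CD45+ populations and scattered in the CD45- populations, and Fermt2, Parva and Tln2 are the reverse without overlap.

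Among the beta chains, Itgb2 was higher in CD45+ cells and Itgb1 lower. Itgb2, the common chain of the leukocyte integrins (chromosome 10, 77530252 to 77565708, GRCm38), ranged from 669 to 1384 CPM in the CD45+ libraries, with a median of 1013. In the TdTOSX+;CD45- libraries it stood at 2.25 and 119 CPM in wild type and at 399 and 148 in those labelled Cdh2-cKO. In the TdTOSX-;CD45- libraries it stood at 11.4, 86.5 and 609 CPM in wild type and at 17.1, 40.9 and 23.9 in those labelled Cdh2-cKO. The groups did not overlap, but the highest CD45- library came close to the lowest CD45+ one. The log2 fold change was 3.35 (SE 0.615, adjusted p = 0.000142 by edgeR), and 4.57 without TdTOSX+;CD45- wild type replicate 2.

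Itgb1, the beta1 chain of most matrix receptors (chromosome 8), was high in every library. It ranged from 284 to 744 CPM in CD45- libraries (median 522) and from 156 to 330.2 in CD45+ libraries (median 239.9). The groups overlapped narrowly, and the log2 fold change was -1.06 (SE 0.166, adjusted p = 2.89e-05 by edgeR). Per kilobase of exon, Itgb2 made up 70.0% to 84.3% of the summed beta chains in CD45+ libraries and 0.283% to 67.2% in CD45- libraries. Itgb1 made up 8.74% to 21.7% and 23.4% to 73.9%. Itgb2 exceeded Itgb1 in 2 CD45- libraries, TdTOSX-;CD45- wild type replicate 3 (67.2% against 23.4%) and TdTOSX+;CD45- Cdh2-cKO replicate 1 (45.8% against 35.7%). In the order of medians of CPM per kilobase, CD45+ cells had Itgb2 (332), Itgb1 (58.8), Itgb5 (19.5) and Itgb7 (6.97), and the range of Itgb2 lay clear of that of Itgb1. CD45- cells had Itgb1 (128), Itgb5 (27.2), Itgb2 (20.9) and Itgb3 (9.73), with Itgb2 spread from 0.739 to 199 and thus overlapping each of the other chains.

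The alpha chains that pair with beta2 were higher in CD45+ cells. Itgam, the alphaM chain of the macrophage receptor Mac-1, ranged from 311 to 857 CPM in CD45+ libraries (median 715) and from 3.36 to 346 in CD45- libraries (median 27.5). Its groups overlapped only through TdTOSX-;CD45+ wild type replicate 2, the lowest CD45+ library, and TdTOSX-;CD45- wild type replicate 3, the highest CD45- one. The log2 fold change was 3.45 (SE 0.627, adjusted p = 0.000129), and 4.08 without that CD45- library. Itgal, the alphaL chain of LFA-1, had a range of 39.9 to 214 CPM in CD45+ libraries (median 74) and of 0.551 to 27.1 in CD45- libraries (median 3.76). All CD45+ libraries exceeded all CD45- libraries, with a log2 fold change of 3.71 (SE 0.562, adjusted p = 2.17e-05). Itgax, the alphaX chain that is high on dendritic cells and many tumor macrophages, ranged from 46.4 to 219.9 CPM in CD45+ libraries (median 114) and from 0.2 to 44.6 in CD45- libraries (median 3.73). It did not overlap either, and its log2 fold change was 3.61 (SE 0.609, adjusted p = 6.45e-05). Without TdTOSX+;CD45- wild type replicate 2 the log2 fold changes of Itgam, Itgal and Itgax were 4.52, 4.53 and 4.74, and that of Itgax was 4.31 without TdTOSX-;CD45- wild type replicate 3. Per kilobase, Itgam was the main beta2 partner on both sides, with 47.9% to 85.8% of their sum in CD45+ libraries and 50.9% to 83.6% in CD45- libraries. Itgam, Itgax and Itgad lie next to each other on chromosome 7, 1386 and 3719 bases apart. Itgad and Itgax share exact 50-base stretches, so that reads may be lost from either. Of those in Itgad transcripts 19.7% also occur in other genes, Itgax among them, and of those in Itgax transcripts 8.02% also occur in Itgad. For Itgam, 66.3% of such stretches also occur in a readthrough gene model of a later annotation, Gm49368.

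The remaining alpha chains that were higher in CD45+ cells bind ligands of mucosa, endothelium and matrix. Itgae, the alphaE chain of tissue T cells and some dendritic cells, ranged from 1.19 to 47.6 CPM in CD45+ libraries (median 7.33) and from 0.0501 to 3.75 in CD45- libraries (median 0.5). Those groups overlapped, and the log2 fold change was 3.36 (SE 0.675, adjusted p = 0.000327), or 4.43 without TdTOSX+;CD45- wild type replicate 2. Itga4, the alpha4 chain of VLA-4 that binds VCAM1 and fibronectin, had a log2 fold change of 2.32 (SE 0.413) and did not overlap. Itga9, a relative of alpha4, rose by 0.55 (SE 0.189) and overlapped widely. Itgb7, which pairs with alpha4 or alphaE, was not called (0.86, SE 0.432, adjusted p = 0.0918). Its call turned on single libraries: without TdTOSX+;CD45- wild type replicate 2 its log2 fold change was 1.92 (adjusted p = 0.000471), and without TdTOSX-;CD45+ wild type replicate 3 it was 0.98 (adjusted p = 0.0457).

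The collagen-binding alpha chains were all lower in CD45+ cells. Itga11, the alpha11 chain typical of fibroblasts, ranged from 2.05 to 16 CPM in CD45- libraries (median 4.55) and from 0 to 0.234 in CD45+ libraries, which held 17 reads for it in all. Both wild type TdTOSX+;CD45- libraries were the highest, at 16 and 15.5 CPM. Its log2 fold change of -6.14 (SE 0.422, adjusted p = 1.78e-09) rests on at most 4 reads per CD45+ library and depends on the prior count. Itga10, the alpha10 chain of cartilage, ranged from 1.31 to 5.78 CPM in CD45- libraries (median 2.81) and from 0 to 0.261 in CD45+ libraries (31 reads in all). It did not overlap (-4.34, SE 0.461, adjusted p = 3.96e-07). Itga1, the alpha1 chain of smooth muscle and fibroblasts, was lower by a log2 fold change of -3.47 (SE 0.315). Itga2, its neighbor on chromosome 13 at a distance of 26037 bases, had -2.33 (SE 0.563), and -3.20 without TdTOSX-;CD45+ wild type replicate 2.

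Of the laminin receptors, Itga7, the alpha7 chain of muscle and pericytes, was lower in CD45+ cells without overlap (log2 fold change -3.77, SE 0.36). Itga3, found on epithelial and many stromal cells, was lower with overlap (-3.43, SE 0.395). Itga6 was not called (-0.13, SE 0.2, adjusted p = 0.6), with medians of 116 CPM in CD45+ and 121 in CD45- libraries. Itgb4, the beta4 chain that pairs with alpha6 in hemidesmosomes, had a log2 fold change of -3.43 (SE 0.403), and of -2.62 without TdTOSX+;CD45- wild type replicate 2. Itga3 and Itgb4 were both lowest among CD45- libraries in TdTOSX+;CD45- wild type replicate 1, at 6.71 and 2.1 CPM, and the next lowest library for Itga3 had 29.7 CPM. The same library had the lowest sum of 6 epithelial and tumor markers, 33.2 CPM, against 519 to 2074 CPM in the other CD45- libraries and 129 to 470.3 in CD45+ libraries. Of the 5 of these markers that were tested, Krt8, Krt18 and Krt19 were lower in CD45+ cells and Epcam and Cdh1 higher. Cldn4 was too low to test. The part of epithelial or tumor cells in the levels of Itga3 and Itgb4 was not tested.

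The receptors of fibronectin, vitronectin and other ligands with an RGD motif were also lower in CD45+ cells, but most by less. Itga5, the fibronectin receptor chain, had a log2 fold change of -1.31 (SE 0.2) and Itgav, the alphaV chain, one of -0.57 (SE 0.153). Among the partners of alphaV, Itgb3 had -2.96 (SE 0.419), Itgb8 -1.42 (SE 0.43) and Itgb5 -0.65 (SE 0.224). Itgb5 was not called without TdTOSX+;CD45- wild type replicate 1 (-0.52, adjusted p = 0.0678). Itga2b, the alphaIIb chain known from platelets, was low but did not overlap, with 2.41 to 7.86 CPM in CD45- and 0.114 to 1.25 CPM in CD45+ libraries (-2.93, SE 0.367). Among platelet markers, Pf4, which macrophages also express, was higher in CD45+ cells (258 to 1593 CPM against 3.61 to 667), as was Ppbp. Gp1ba was not called, and Gp9, Gp6 and Gp1bb were at or near 0 everywhere. Markers of mast cells and basophils had the direction of Itga2b: all 5 were lower in CD45+ cells, with sums of 10.7 to 111 CPM in CD45- and 0.209 to 22.1 in CD45+ libraries. All 7 fibroblast and all 6 endothelial markers were lower as well. Among CD45- libraries the mast cell and basophil sum was highest in TdTOSX+;CD45- wild type replicate 2, where Itga2b stood at 2.6 CPM. Itga2b was highest (7.86 CPM) in replicate 1 of that group, where the sum was 31.4 CPM. The part of any of these cells in the level of Itga2b was not tested. Itga8, the alpha8 chain, was near the detection floor and not called (0.61, SE 0.535, adjusted p = 0.331). Without TdTOSX+;CD45- wild type replicate 1 it was called, at 1.79 (adjusted p = 0.00902).

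**Figure D2:**
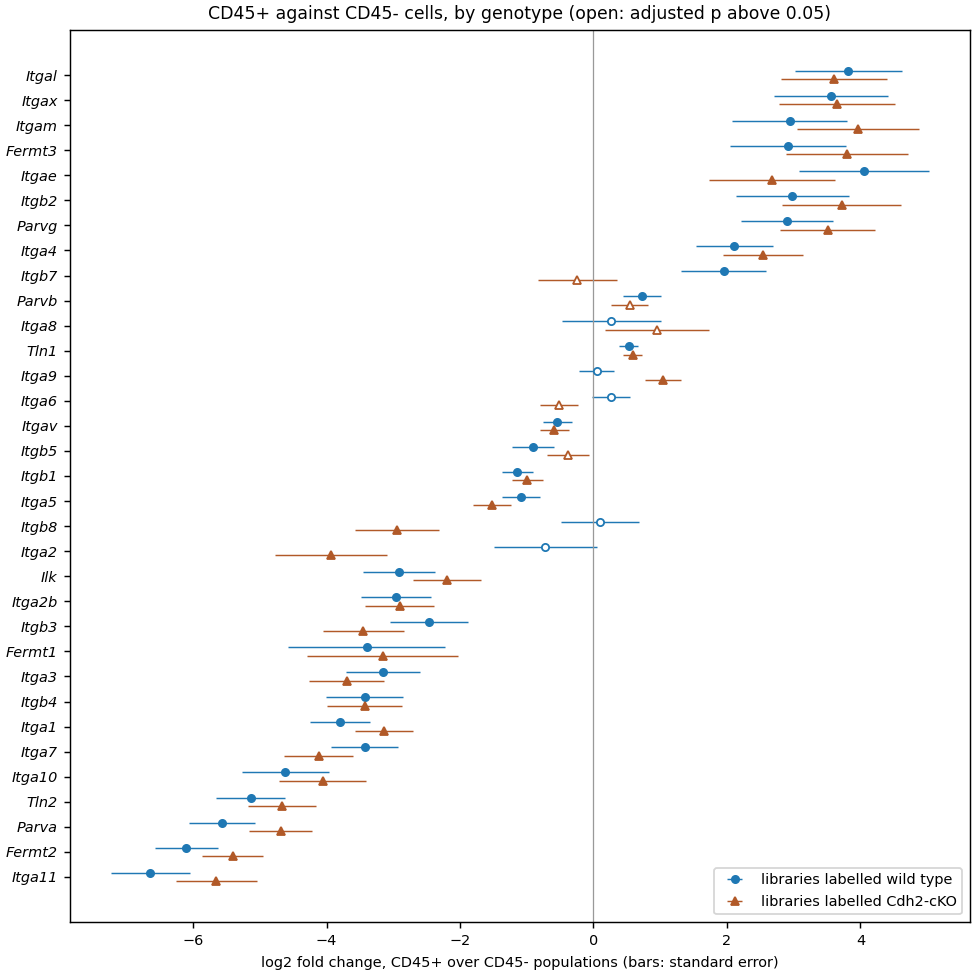
Log2 fold change of CD45+ over CD45- populations with its standard error, for the 33 genes tested, in libraries labelled wild type (circles) and Cdh2-cKO (triangles). Open symbols have an adjusted p above 0.05. Itgal, Itgax, Itgam and Fermt3 lie far right and Itga11, Fermt2, Parva and Tln2 far left in both genotypes, and Itga2, Itga9, Itgb5, Itgb7, Itgb8 and Parvb differ in call.

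Among the kindlins and the parvins, one paralog was high in CD45+ cells and another in CD45- cells. Fermt3 (chromosome 19, 6998958 to 7019469), kindlin-3, is the kindlin of blood cells. It ranged from 392 to 856 CPM in CD45+ libraries (median 573) and from 1.4 to 379.9 in CD45- libraries (median 39.9). The groups were just separate, with a log2 fold change of 3.36 (SE 0.632, adjusted p = 0.000179), or 4.57 without TdTOSX+;CD45- wild type replicate 2. Fermt2 (chromosome 14, 45458792 to 45530118), kindlin-2, serves adherent cells. It ranged from 48.4 to 255 CPM in CD45- libraries (median 151) and from 1.09 to 8.49 in CD45+ libraries (median 2.26). No library came near the other group, and the log2 fold change of -5.75 (SE 0.33, adjusted p = 2.23e-10) had the smallest p of the 33 genes. Fermt1, the epithelial kindlin-1, had 9 reads in all CD45+ libraries and 117 in all CD45- libraries. Its log2 fold change of -3.28 (adjusted p = 0.00202) was lost without TdTOSX+;CD45- wild type replicate 2 (-1.91, adjusted p = 0.992) and without TdTOSX+;CD45- Cdh2-cKO replicate 2 (-2.60, adjusted p = 0.052). It was -4.01 to -4.10 without any one of TdTOSX+;CD45+ wild type replicate 3, TdTOSX+;CD45+ Cdh2-cKO replicate 3 and TdTOSX-;CD45+ Cdh2-cKO replicate 2.

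The parvins followed the same pattern. Parvg, gamma-parvin of hematopoietic cells, was higher in CD45+ cells without overlap (76.6 to 221 CPM against 1.65 to 62.3, log2 fold change 3.20, SE 0.494, and 4.00 without TdTOSX+;CD45- wild type replicate 2). Parva, alpha-parvin, ranged from 61.7 to 303 CPM in CD45- libraries (median 182) and from 1.22 to 15.4 in CD45+ libraries (median 3.97). All CD45- libraries exceeded all CD45+ libraries by a wide gap (-5.13, SE 0.342, adjusted p = 1.19e-09). Parvb, beta-parvin, lies 8337 bases upstream of Parvg on chromosome 15 but changed by only 0.63 (SE 0.201), with overlap.

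Both talins, the proteins that link the beta tail to actin, were present on both sides in unequal amounts. Tln1 differed little (log2 fold change 0.56, SE 0.101), with medians of 281 CPM in CD45+ and 191 CPM in CD45- libraries. Tln2 ranged from 11 to 79.8 CPM in CD45- libraries (median 36.9) and from 0.286 to 2.8 in CD45+ libraries (median 1.21). It did not overlap, with a log2 fold change of -4.90 (SE 0.363, adjusted p = 4.36e-09). Ilk was lower in CD45+ cells (-2.56, SE 0.371), but only 315 reads were counted on it in all, and 89.7% of its exon bases are shared with Rrp8 and Taf10, where unambiguous counting drops reads. Its level is therefore uncertain.

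Per kilobase of exon, the share of Fermt3 among the kindlins was 99% to 99.9% in CD45+ libraries. In CD45- libraries it ran from 0.789% in TdTOSX+;CD45- wild type replicate 1 to 91.9% in TdTOSX-;CD45- wild type replicate 3. Parvg made up 74% to 93.7% of the parvins in CD45+ libraries and 1.63% to 59.8% in CD45- libraries, and Parva 0.174% to 3.2% and 18% to 91%. Tln2 made up at most 0.737% of the talins in any CD45+ library and between 4.09% and 21.5% in CD45- libraries. Fermt2, Parva and Tln2 thus took a small share of their families in every CD45+ library, while still counted there with at least 19, 21 and 5 reads. The shares of Fermt3 and Parvg varied widely between CD45- libraries.

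**Figure D3:**
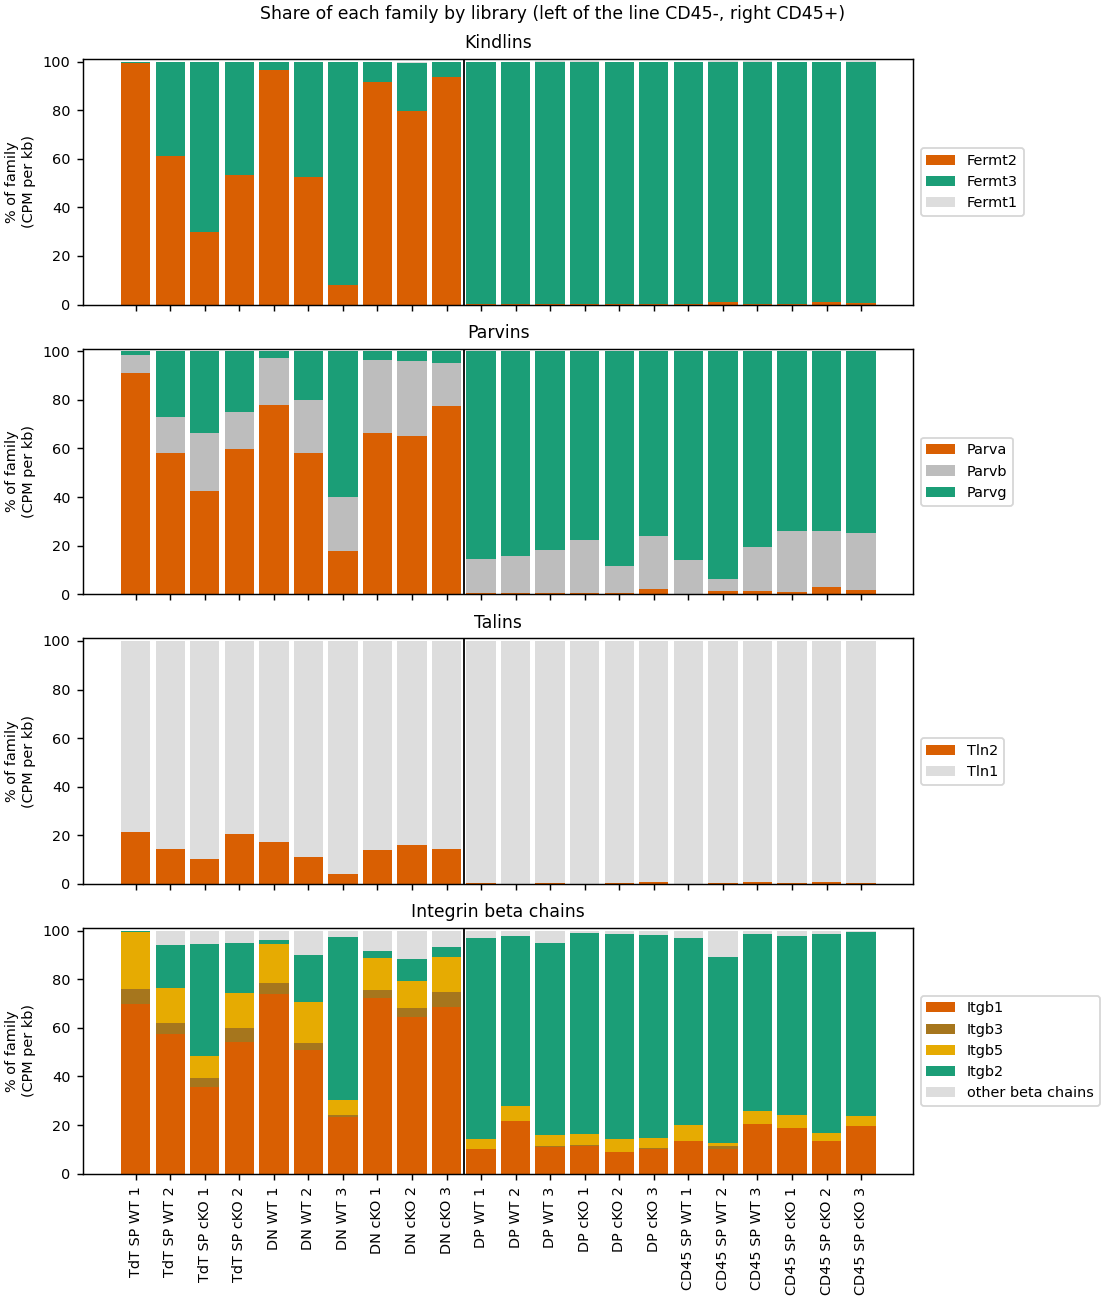
Share of each gene in its family (percent of the summed CPM per kilobase) in each library, for kindlins, parvins, talins and beta chains. The 10 bars left of the line are CD45- libraries and the 12 right of it CD45+ libraries (SP, single positive; DP, TdTOSX+;CD45+; DN, TdTOSX-;CD45-). Fermt3, Parvg and Itgb2 fill most of each CD45+ bar, and in CD45- bars they are largest in TdTOSX-;CD45- wild type replicate 3.

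Upstream sequence is shown for a leukocyte-type and a matrix-type gene that moved apart and that each hold a motif named below. RefSeq start sites (GRCm38.p6) were given for 25 of the 35 genes. The motif GAGGAA (or TTCCTC on the opposite strand), the core recognized by the myeloid factor PU.1, was found in 3 of 9 windows of genes higher in CD45+ cells, in 6 of 16 windows of lower ones and in 23.3% of all 32851 windows. A window here is the 250 bases before a start site, and a gene may have several. A CArG box, bound by serum response factor, was found in the window of Fermt2 and of no other called gene, and in 1.47% of all windows. The window of Fermt3 held neither motif. In the sequences, capitals mark these motifs, which begin 84 and 15 bases before the start site of Itgam and 204 bases before that of Fermt2. The first lies at chr7:128062390-128062639 on the plus strand and the second at chr14:45530119-45530315 on the minus strand. Of the 250 bases of the Fermt2 window only the first 197 are shown. They stop at the gene boundary given above, short of the RefSeq start site from which the 204 bases are counted.
Itgam: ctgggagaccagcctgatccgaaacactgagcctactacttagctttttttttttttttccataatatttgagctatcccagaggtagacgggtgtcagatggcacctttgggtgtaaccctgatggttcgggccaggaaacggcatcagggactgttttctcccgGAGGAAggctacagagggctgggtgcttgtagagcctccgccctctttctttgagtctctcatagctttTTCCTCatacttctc
Fermt2: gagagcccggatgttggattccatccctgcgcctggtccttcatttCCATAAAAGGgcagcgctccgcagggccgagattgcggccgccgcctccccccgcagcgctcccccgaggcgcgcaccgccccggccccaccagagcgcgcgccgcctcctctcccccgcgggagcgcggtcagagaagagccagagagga

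The leukocyte integrins in CD45- libraries moved with Ptprc, the gene of CD45. Ptprc had 466 to 1694 CPM in CD45+ libraries and 2.4 to 338 CPM in CD45- libraries, so that the gates were met in order but not without residue. The sum of 5 pan-leukocyte markers, all called higher in CD45+ cells, was 9526 to 11851 CPM in CD45+ and 184 to 5913 CPM in CD45- libraries. The 6 macrophage markers, also all higher, summed to 2166 to 8266 CPM and 107 to 4478 CPM. Itgb2 per Ptprc, both in CPM, was 0.525 to 2.84 in CD45+ libraries and 0.938 to 2.51 in CD45- libraries. The corresponding ratios were 0.184 to 1.83 and 0.746 to 1.84 for Itgam, 0.0746 to 0.229 and 0.0734 to 0.229 for Itgal, and 0.231 to 1.51 and 0.583 to 1.55 for Fermt3. Thus CD45- libraries with little Ptprc also had little of these 4 genes, with ratios that overlapped those of CD45+ libraries. Whether residual leukocytes account for these levels was not tested.

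Parvg, Itga4 and Itgb7 reached higher ratios in CD45- libraries. Parvg per Ptprc was 0.0934 to 0.371 in CD45+ libraries (median 0.21) and 0.184 to 0.688 in CD45- libraries (median 0.316). Itga4 per Ptprc was 0.053 to 0.0849 in CD45+ libraries but 0.0627 to 1.52 in CD45- libraries, highest in TdTOSX+;CD45- wild type replicate 1 (1.52), where Itga4 stood at 3.66 CPM and Ptprc at 2.4. Itgb7 per Ptprc was 0.0103 to 0.0946 in CD45+ libraries and 0.032 to 1.95 in CD45- libraries. Its level stayed between 8.92 and 18.1 CPM in all TdTOSX-;CD45- libraries while Ptprc there ranged from 4.58 to 338 CPM.

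**Figure D4:**
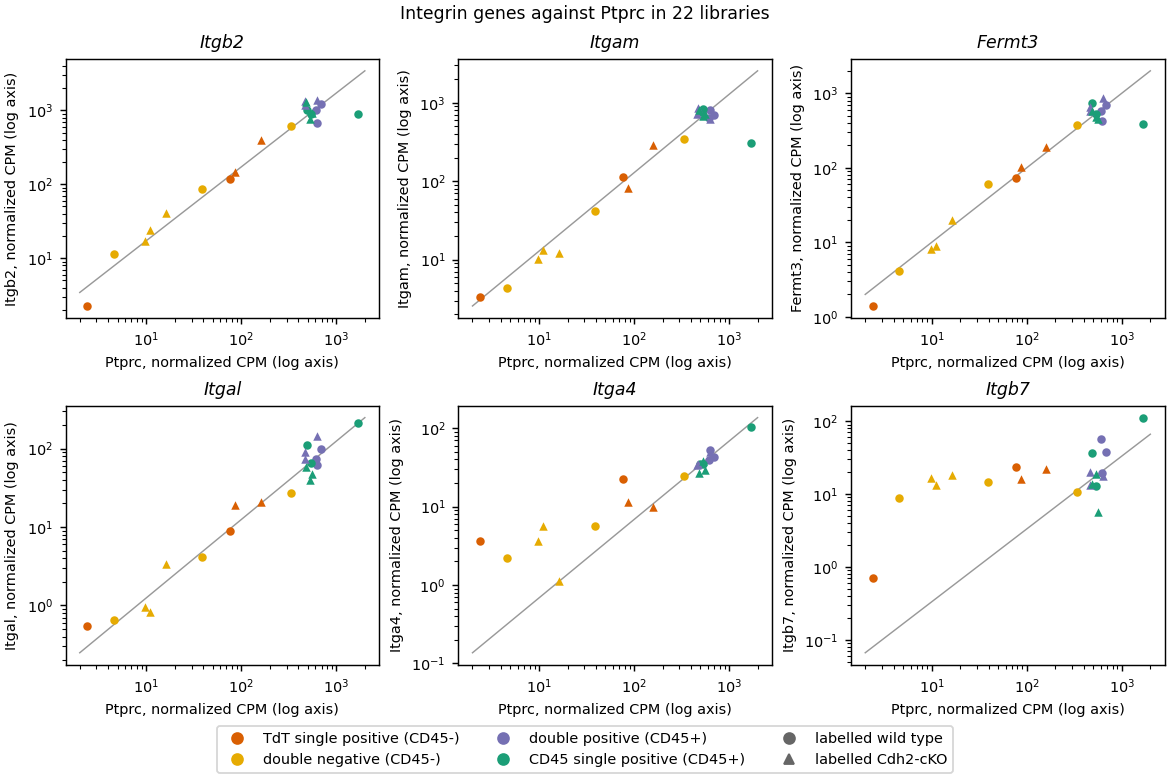
Normalized CPM of 6 integrin genes against that of Ptprc, both on log axes, in the 22 libraries, with the grey line at the median ratio of the CD45+ libraries. Points for Itgb2, Itgam, Fermt3 and Itgal run along the line from CD45- to CD45+ libraries, and most CD45- points for Itga4 and Itgb7 lie above it.

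The second comparison asked whether TdTOSX+ cells differed from TdTOSX- cells on the same side of the CD45 gate. Within CD45- cells no integrin gene was called by edgeR, voomWithQualityWeights or DESeq2, where edgeR called 2.10% of all genes, and 3 were under an unadjusted p of 0.05 in edgeR, as were 19.4% of all genes. The lowest p was that of Itga6, with a log2 fold change of -0.86 (SE 0.306, adjusted p = 0.137). Itga6 had 31.9, 97.7, 126 and 117 CPM in the TdTOSX+;CD45- libraries and 111 to 289 CPM in the TdTOSX-;CD45- libraries, with overlap.

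This outcome turned on single libraries. Itgam stood at 3.36 and 114 CPM in wild type and at 294 and 81.2 CPM in Cdh2-cKO labelled TdTOSX+;CD45- libraries. In TdTOSX-;CD45- libraries it stood at 4.39, 41.8 and 346 CPM in wild type and at 10.1, 12.1 and 13.1 CPM in Cdh2-cKO labelled ones. The groups overlapped at both ends: replicate 3 of the TdTOSX-;CD45- wild type was above every TdTOSX+;CD45- library, and replicate 1 of the TdTOSX+;CD45- wild type was below every TdTOSX-;CD45- library. In TdTOSX+;CD45- cells 4 integrin genes were higher without TdTOSX-;CD45- wild type replicate 3, where edgeR called 5.41% of all genes. These were Itgam (2.67, SE 0.712, adjusted p = 0.0392), Itgax (2.38, SE 0.644, adjusted p = 0.041), Itgal (2.27, SE 0.634, adjusted p = 0.0461) and Parvg (2.04, SE 0.563, adjusted p = 0.0442). Without TdTOSX+;CD45- wild type replicate 2, Itga6 (-1.29, adjusted p = 0.0352) and Itgb4 (-2.23, adjusted p = 0.0431) were lower in TdTOSX+;CD45- cells, where 3.07% of all genes were called. In the same 10 libraries the pan-leukocyte sum was 210.2 to 4135 CPM in TdTOSX+;CD45- and 184 to 5913 CPM in TdTOSX-;CD45- libraries. Its part in these results was not tested.

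**Figure D5:**
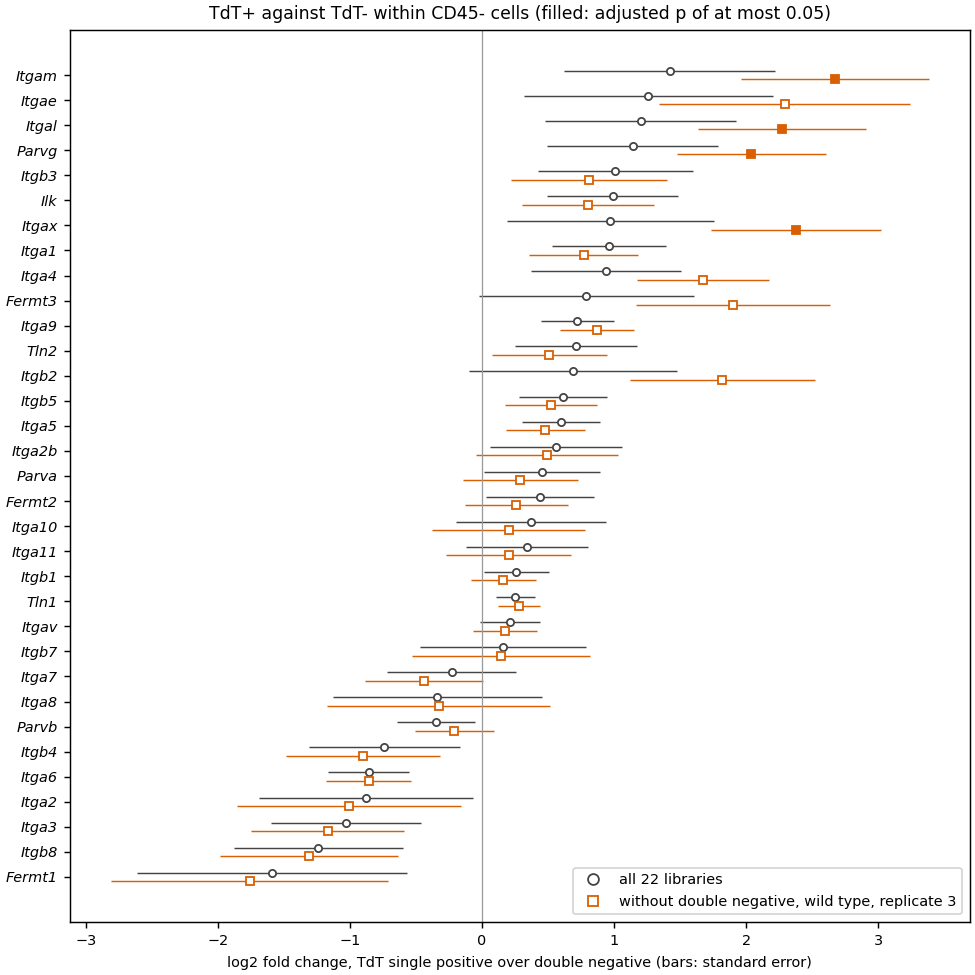
Log2 fold change of TdTOSX+;CD45- over TdTOSX-;CD45- cells with its standard error for the 33 genes tested, with all 22 libraries (circles) and without TdTOSX-;CD45- wild type replicate 3 (squares). Filled symbols have an adjusted p of at most 0.05. All circles are open, and the squares of Itgam, Itgax, Itgal and Parvg are filled.

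The matrix-type genes did not differ detectably by TdT within CD45- cells. Fermt2 had 255, 166, 119 and 166 CPM in TdTOSX+;CD45- libraries and 48.4 to 191 CPM in TdTOSX-;CD45- libraries (log2 fold change 0.44, SE 0.41, adjusted p = 0.59). Itgb3 had a log2 fold change of 1.01 (SE 0.587, adjusted p = 0.367) and Itga1 one of 0.96 (SE 0.43, adjusted p = 0.231). Within CD45+ cells no integrin gene was called either by edgeR or by the other tools. There edgeR called 1 gene of all, 0.00666%, and 1 integrin gene had an unadjusted p under 0.05, against 3.83% of all genes. The difference of the TdT effect between CD45- and CD45+ cells was also called for none of the 33 genes by the same tools, and for 0.00666% of all genes by edgeR. There 3 integrin genes and 9.25% of all genes were under an unadjusted p of 0.05.

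The third comparison was between genotypes, and counts of the targeted gene were not lower in CD45- libraries labelled Cdh2-cKO. The deletion was placed in Cre-expressing cells, so levels in TdTOSX- cells do not bear on it. Cdh2, N-cadherin, had 8.97 and 4.9 CPM in TdTOSX+;CD45- wild type libraries and 16.8 and 12.5 CPM in the TdTOSX+;CD45- libraries labelled Cdh2-cKO. In TdTOSX-;CD45- libraries it had 6.18, 7.48 and 4.52 CPM in wild type and 13.1, 19.2 and 14.6 CPM in those labelled Cdh2-cKO. Every CD45- library labelled Cdh2-cKO was thus above every wild type one, though neither difference was called (log2 fold change 1.08, SE 0.841, adjusted p = 0.661, and 1.37, SE 0.693, adjusted p = 0.6 by edgeR). CD45+ libraries had 0 to 2.74 CPM. The counts are summed over all exons of the gene, so the loss of some exons would not appear in them. Any direction between genotypes given here is one between libraries with these labels.

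No integrin gene was called between genotypes over all populations, nor in any single population, by edgeR. Over all populations edgeR called 0% of all genes, and 6 integrin genes and 11.4% of all genes were under an unadjusted p of 0.05, led by Itgb4 (1.18, SE 0.389, adjusted p = 0.328). Without TdTOSX+;CD45- wild type replicate 2, Itgb4 was higher in the libraries labelled Cdh2-cKO (1.94, SE 0.35, adjusted p = 0.0272), as one of 0.255% of all genes called. DESeq2 and voomWithQualityWeights called none over all populations.

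Within single populations edgeR called at most 0.00666% of all genes. DESeq2 called 1 integrin gene in one population and 4 in another, where it called 0.892% and 3.48% of all genes. In TdTOSX+;CD45- cells it called Itga11 lower in the libraries labelled Cdh2-cKO (-2.66, adjusted p = 0.00671), where edgeR gave -2.61 (SE 0.764, adjusted p = 0.286). Itga11 had 16 and 15.5 CPM in the 2 wild type libraries and 3.11 and 2.05 CPM in the 2 labelled Cdh2-cKO, without overlap. In TdTOSX-;CD45- cells DESeq2 called Itgam, Itgb2, Fermt3 and Parvg lower in those labelled Cdh2-cKO, by log2 fold changes of -2.87 to -3.54. Without TdTOSX-;CD45- wild type replicate 1 edgeR called these and Itgal (-3.24 to -4.21), where it called 4.04% of all genes, and Ptprc was called with them (-3.98, adjusted p = 0.0263). Ptprc in this population went from 4.58, 38.7 and 338 CPM in wild type to 9.81, 16.3 and 11.1 CPM in libraries labelled Cdh2-cKO. Without replicate 3 of the wild type edgeR called 0 genes in this population. Its part in these results was not tested. At an unadjusted p under 0.05 edgeR had 2 integrin genes in TdTOSX+;CD45- (10.6% of all genes), 3 in TdTOSX+;CD45+ (3.46%), 1 in TdTOSX-;CD45+ (8.93%) and 8 in TdTOSX-;CD45- cells (9.30%).

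The CD45 comparison was repeated within each genotype. In wild type libraries 11 integrin genes rose across the gate and 17 fell (24.4% and 26.4% of all genes), and in libraries labelled Cdh2-cKO 10 rose and 18 fell (22.6% and 27.8%). The same direction was called in both for 25 genes, a count for which no share of all genes is given. These calls share 1 estimate of the spread: fitted on the wild type libraries alone, 6 genes were higher and 14 lower. No share of all genes is given for that fit, so its counts cannot be set against one. Itgb7 was called in wild type (1.95, SE 0.636, adjusted p = 0.0167) and not in the libraries labelled Cdh2-cKO (-0.24, SE 0.598). Itgb5 (-0.91) and Parvb (0.72) were also called in wild type alone, with -0.38 and 0.54 in the libraries labelled Cdh2-cKO. Itga2, Itga9 and Itgb8 were called only in the latter (-3.94, 1.04 and -2.94). None of these differences was called when tested as an interaction by edgeR, voomWithQualityWeights or DESeq2, where edgeR called 0% of all genes. In edgeR 4 integrin genes and 7.82% of all genes were under an unadjusted p of 0.05, and their interaction terms were -3.04 (SE 0.873, adjusted p = 0.561) for Itgb8, -3.21 for Itga2, -2.19 for Itgb7 and 0.99 for Itga9.

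Other genes of the pathway were compared across the CD45 gate as well, where 31.2% of all genes were higher and 32.1% lower. Of 15 regulators of integrin activation, 12 were higher in CD45+ cells, 1 was lower and 2 were not called, with a median log2 fold change of 1.22. The largest were Fyb (2.88, SE 0.567), the adaptor ADAP of leukocytes, Rassf5 (2.61, SE 0.299), the Rap1 effector RAPL, and the endocytic adaptor Dab2 (2.47, SE 0.455). The lower one was Dok1 (-1.54, SE 0.15), which competes with talin for the beta tail. Of 26 adhesion complex and signalling genes 7 were higher, 14 lower and 5 not called, with a median of -0.48. The share of these called higher was near that of all genes.

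In that group the leukocyte paxillin relative Lpxn (3.33, SE 0.635), the kinase Syk (2.82, SE 0.337) and Ptk2b, the PYK2 kinase (1.72, SE 0.218), were higher. Ptk2, the focal adhesion kinase that is the paralog of Ptk2b, was lower (-3.76, SE 0.254). So were Lims2, the PINCH2 partner of integrin-linked kinase (-7.55, SE 0.424), Tgfb1i1, the paxillin relative Hic-5 (-7.45, SE 0.3), and Bcar1, the scaffold p130Cas (-4.32, SE 0.339). Lims1, the PINCH1 paralog of Lims2, was not called (0.16, SE 0.0789, adjusted p = 0.0842). Ptk2 and Lims1 were chosen after their values were seen, and other paralogs of the group were lower together, such as Actn1 (-1.44) and Actn4 (-0.85).

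Of 29 matrix ligands 25 were tested, and 21 were lower in CD45+ cells, 2 higher and 2 not called, with a median log2 fold change of -4.41. Vtn, vitronectin, had the lowest value (-8.65, SE 0.996), at a mean of 0.016 CPM (SD 0.0394, n = 12) in CD45+ libraries, followed by the type I collagen genes Col1a2 (-7.75, SE 0.38) and Col1a1 (-7.54, SE 0.375). Spp1, osteopontin (1.32, SE 0.325), and Tgfb1, whose latent form binds alphaV integrins (0.79, SE 0.201), were higher. The fibroblast marker sum of 7 genes, all lower in CD45+ cells, was 4237 to 57964 CPM in CD45- and 59.9 to 212 CPM in CD45+ libraries, and it holds Col1a1, Col1a2 and Col3a1. Of 12 cell surface ligands 11 were tested, 4 were higher, 4 lower and 3 not called. Both shares were near those of all genes, 31.2% higher and 32.1% lower. Cdh1, E-cadherin and the ligand of alphaE (4.05, SE 0.644), Icam1, the ligand of LFA-1 (1.72, SE 0.263), and the junction molecule F11r (1.41, SE 0.309) were higher. Jam3 (-5.47, SE 0.3), Thy1 (-5.10, SE 0.628) and Sema7a (-4.57, SE 0.424) were lower. No gene of these 4 groups was called by TdT within either side of the gate or by genotype over all populations in edgeR.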

How the data were processed

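The authors prepared cDNA with a low-input amplification kit, sequenced it as single 50-base reads, aligned the reads with STAR 2.0.4b to GRCm38 and used featureCounts (1.45 in the labels) to assign unique reads that fell on a single Ensembl gene. Strand use is not stated, so antisense genes could not be separated. The deposited counts are raw whole numbers. The deposited CPM and RPKM values were computed by the authors from these counts and were read only to check them (largest relative deviation 5.1e-14).

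R 4.3.3 was used on the counts of 22 libraries. After removal of 353 rRNA genes, a gene entered if it exceeded 1 CPM in 2 or more libraries. edgeR 4.0.16 (TMM factors, quasi-likelihood F test, 2-sided) was fitted to all 15020 genes with 1 mean for each of 8 groups. P-values were adjusted by Benjamini-Hochberg over all genes. Fold changes took edgeR's default prior count. A prior count of 2 entered only the log2 CPM behind the principal components and the check of replicate numbers. limma 3.58.1 (voomWithQualityWeights, the method the study names) and DESeq2 1.42.0 were alternatives. SE values belong to log2 fold changes. Replicates differed by 53.26 to 446.0 times the counting variance, so no library was a duplicate. Reads carry no molecular identifiers, so floors cover counting error only. The scripts were tested on simulated counts.

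All 35 genes are accounted for. Levels over the libraries are given for the 5 called genes with the largest change in each direction across the CD45 gate, for genes called in another comparison and for Itgb1, Itgb2, Cdh2 and Ptprc, and other pathway lists give at most 3 called genes per direction. Members and lists were chosen with earlier results of these data known. Some items are not reported here.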

Additional observations from a re-analysis of the deposited data

Results flagged for a closer look

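In 2 genes every library labelled Cdh2-cKO lay on one side of every wild type library in one population and on the other side in another. These differences between populations were not tested, and Cdh2 itself was not lower in the CD45- libraries labelled Cdh2-cKO. The share of all genes with such a pattern is not given, so these 2 genes cannot be set against it. Itgal had 0.551 and 8.96 CPM in TdTOSX+;CD45- wild type libraries and 20.8 and 19 CPM in those labelled Cdh2-cKO (log2 fold change 2.05, SE 1.15, adjusted p = 0.542 by edgeR). In TdTOSX-;CD45+ cells it had 110.0, 214 and 65.7 CPM in wild type libraries and 39.9, 59.2 and 47.6 CPM in those labelled Cdh2-cKO (-1.41, SE 0.912, adjusted p = 0.637 by edgeR).

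Itgb8, a beta chain that binds latent TGF-beta with alphaV, had 0.801 and 0.293 CPM in TdTOSX+;CD45- wild type libraries and 2.17 and 1.83 CPM in those labelled Cdh2-cKO (log2 fold change 1.88, SE 0.993, adjusted p = 0.521 by edgeR). In TdTOSX+;CD45+ cells it had 0.748, 1.37 and 2.4 CPM in wild type libraries and 0.109, 0.189 and 0.525 CPM in those labelled Cdh2-cKO (-2.45, SE 0.865, adjusted p = 1 by edgeR).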

How the results depend on the processing

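Across the CD45 gate the counts of 11 higher and 19 lower genes were the same with voomWithQualityWeights, DESeq2, other scaling factors and no filter on low counts, and 11 to 12 and 18 to 19 when any 1 library was left out. Requiring also an absolute log2 fold change of at least 2 gave 8 higher and 14 lower, without Itga5, Itga9, Itgav, Itgb1, Itgb5, Itgb8, Tln1 and Parvb. No share of all genes is given at that threshold. voomWithQualityWeights gave larger changes for Itgam (4.29), Itgax (4.33), Itgb2 (4.12), Fermt3 (4.13) and Itga2 (-3.24). In wild type alone the counts were 10 to 12 higher and 15 to 17 lower without 1 library. Fitting that genotype on its own gave 6 higher genes in place of 11, again with no share of all genes. Cdh2-cKO labelled libraries gave 9 to 11 and 16 to 18. Leaving out 1 library gave 0 to 4 integrin genes called by TdT within CD45- cells, 0 to 1 between genotypes over all populations and 0 to 5 between genotypes in TdTOSX-;CD45- cells. Without TdTOSX-;CD45+ wild type replicate 2 and TdTOSX-;CD45- wild type replicate 3 together, an alternative chosen after seeing the data, 6 genes were higher in TdTOSX+ than in TdTOSX- cells within CD45- cells, namely Itga4, Itga9, Itgal, Itgam, Itgax and Parvg, where 9.48% of all genes were called in either direction. DESeq2 called 1 gene between genotypes in TdTOSX+;CD45- cells and 4 in TdTOSX-;CD45- cells. Itga6, not called, changed sign across the CD45 gate without TdTOSX+;CD45- wild type replicate 2 (0.16) and lay between -0.28 and that value when any 1 library was left out. Replicate numbers were not used to pair samples in the main test. Of 30 pairs of libraries from different populations with the same number, 10 had a correlation of deviations over 0.1 (median 0.052). Of 60 pairs with different numbers, 6 did (median -0.021). Some pairing by number is therefore possible. With a replicate block 12 genes were higher and 19 lower across the CD45 gate, the addition being Itgb7 (1.09, adjusted p = 0.0466). The causes of these changes were not tested. Groups of 2 or 3 libraries and the low counts of Itga8, Itga10, Itga11, Itgb8, Fermt1 and Ilk limit what could be detected.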

Other observations

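The integrin genes of TdTOSX-;CD45+ wild type replicate 2, the library with high B and T cell markers, differed from those of the other 11 CD45+ libraries. It had the highest Itga4 (103 CPM), Itgal (214), Itgae (47.6) and Itgb7 (112), chains of lymphocyte integrins, and the lowest Itgam (311), Itgb5 (15.3) and Itga6 (45.8). Its Itgb2 of 889.6 CPM lay within the range of the others. The same library had the highest Itgb3 (33.6 CPM) and Itga2 (6.34) of the CD45+ libraries. Its marker sums were also the highest of the CD45+ libraries for neutrophils (789 CPM against at most 94.9), dendritic cells (566 against at most 188), NK cells (183 against at most 43.6) and endothelial cells (202 against at most 36.5). The part of these cells in its integrin levels was not tested. These genes were picked after their values were seen, and no test was made with 1 library.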
